A study of Mus musculus with 4 samples.

Results

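The 10 photoreceptor transcription factors described here are Otx2, Rorb, Prdm1, Crx, Mef2d, Nrl, Nr2e3, Esrrb, Thrb and Rxrg. They were chosen by name, as DNA-binding proteins known to set rod and cone fate, out of 21828 gene symbols in the expression tables. RNA was sequenced from neonatal mouse retina that had been sorted into a fraction with EGFP (pHes1_EPC) and a fraction without EGFP (pHes1_ENC) at postnatal day 1 (P1) and postnatal day 4 (P4). All animals carried a transgene in which a fragment of the Hes1 promoter drives a destabilized EGFP, the labels give the strain as FVB/N, and no treatment was applied. Each fraction at each age is 1 library, so the 4 libraries have no replicates and no test between groups was possible. EGFP reports the activity of the promoter fragment rather than Hes1 protein, and the number of animals behind a library is not given in the sources used here.

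Rods and cones arise from retinal progenitor cells after these cells leave the cell cycle. Otx2, a homeodomain protein, is required for photoreceptor fate, Rorb acts near the same step, and Prdm1 favours photoreceptors over bipolar cells. Crx, which is related to Otx2, and Mef2d then activate genes of both rods and cones. Nrl directs a precursor to the rod fate and activates Nr2e3, which represses cone genes in rods, and Esrrb is a nuclear receptor of maturing rods. Thrb and Rxrg encode nuclear receptors that act in cones, where they control which opsin is made. Hes1, whose promoter marks the sorted cells, is a repressor that keeps progenitors undifferentiated and that Müller glia retain.

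Of the 10 factors, 8 were listed at lower levels in pHes1_EPC than in pHes1_ENC by more than 2-fold on the log2(FPKM + 1) scale at both ages, and the exceptions were Rorb and Esrrb. Crx, Nrl and Nr2e3 stood at 5.18% to 6.06% of their pHes1_ENC level in P1 pHes1_EPC and at 16.8% to 21.1% in P4 pHes1_EPC. Levels are FPKM, in which the fragments of a gene are scaled for transcript length and sequencing depth. A difference is log2(FPKM + 1) in pHes1_EPC minus that in pHes1_ENC, and a gene was counted as lower when it was below -1. Of the 10 factors, 8 were below -1 at P1 (11.5% of the 12941 genes that reached an FPKM of 1 in any library were) and the same 8 at P4 (9.15% of these genes were). None was above 1 at P1 (10.3% of these genes were) or at P4 (16.6%). By the 95% bounds that Cufflinks gave, the interval in pHes1_EPC lay apart from and below that in pHes1_ENC for 9 factors at P1 (32.7% of these genes) and 9 at P4 (29.2%), and above it for 0 at P1 (34.9%) and for 1, Rorb, at P4 (44.3%). The median difference of the 10 factors was -2.78 at P1 and -2.03 at P4, and that of the 12941 genes was 0.02 and 0.15. A lower level in a sorted fraction can come from fewer cells of a type or from less RNA in each cell, and these cannot be told apart here.

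**Figure D1:**
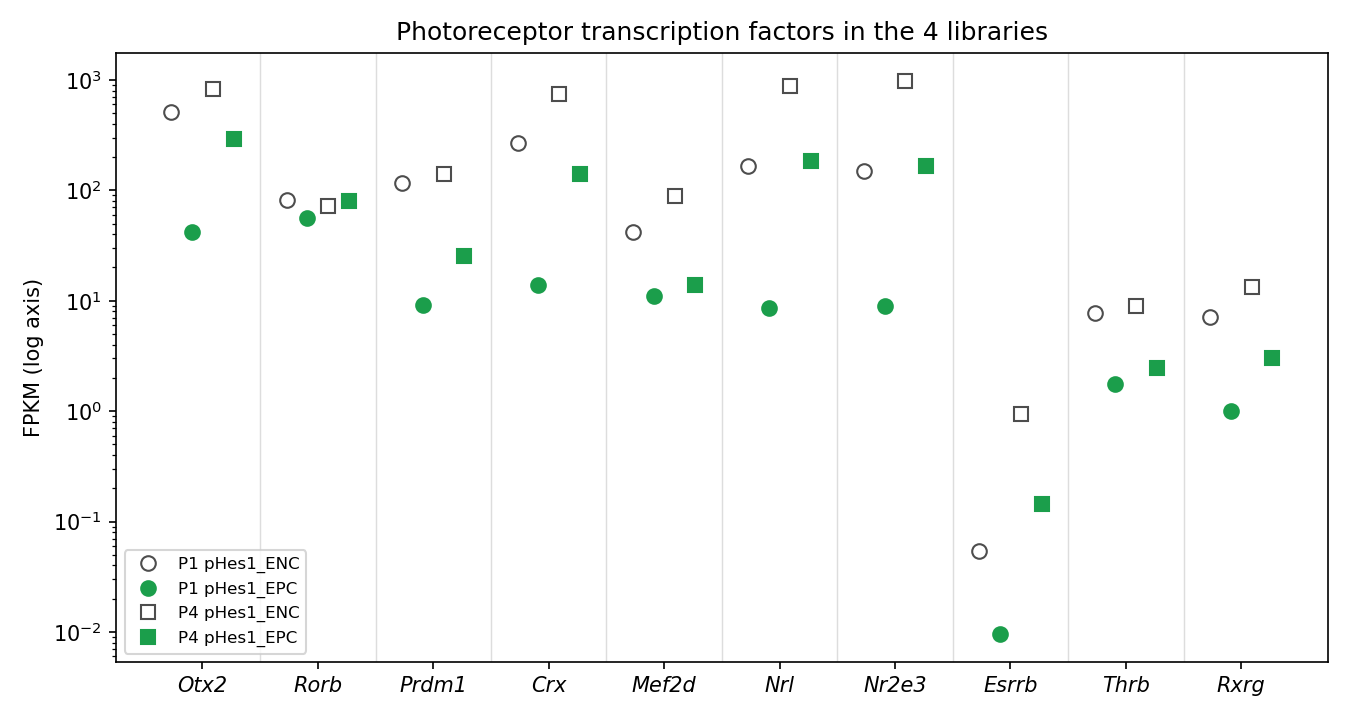
FPKM of the 10 factors in the 4 libraries on a log axis, with 1 point for each library. The 95% bounds that Cufflinks gave are not drawn. Rorb spans only 55.9 to 82.4 over the libraries while Nrl spans 8.51 to 875, and Esrrb is the lowest of the 10 in all 4.

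The 4 libraries were of like depth, which the widths of the Cufflinks intervals put at 0.927 to 1 relative to P1 pHes1_ENC, and 11458 to 12108 genes had an FPKM of at least 1. The FPKM over all genes summed to between 277433 in P1 pHes1_ENC and 372016 in P4 pHes1_EPC. Rescaling these unequal libraries moved the median of all genes at P4 by -0.25 to -0.17 on the log2 scale. The pHes1_EPC libraries carried the progenitor and glial markers that an active Hes1 promoter goes with. All 7 progenitor markers, Hes1 included, were above 1 at both ages, as were 7 of 8 Müller glia markers. Of the 12941 genes 10.3% were above 1 at P1 and 16.6% at P4. Hes1 was at 16.6, 105, 3.59 and 93.5 FPKM in P1 pHes1_ENC, P1 pHes1_EPC, P4 pHes1_ENC and P4 pHes1_EPC. Values below that are given for 4 libraries follow this order. Ranges of a percentage or ratio divide the lower 95% bound of one library by the upper bound of the other and the reverse, and they cover counting error only. For 13 of the 40 values of the factors the listed FPKM lies outside its own interval, as it does for 11.3% to 13.3% of genes in each library, so a ratio of FPKM and the range of that ratio do not rest on the same estimate for these values.

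Otx2, the homeodomain factor at the head of the photoreceptor pathway, was the most abundant of the 10 in P1 pHes1_ENC. Its FPKM was 509, 41.8, 835 and 292. These levels ranked 20, 1509, 14 and 154 among the 21828 genes. The level in pHes1_EPC was 8.21% of that in pHes1_ENC at P1 (range 7.69 to 9.02) and 35.0% at P4 (range 33.7 to 36.5), and the intervals lay apart at both ages. The gap was thus smaller at P4, with differences of -3.58 and -1.51. Between P1 and P4 the level was higher by 1.64-fold in pHes1_ENC and by 6.99-fold in pHes1_EPC. The FPKM of Otx2 lies above its own interval in all 4 libraries, for example 509 against 444 to 460 in P1 pHes1_ENC. Otx2 is also known from bipolar cells and pigment epithelium. The summed FPKM of 7 bipolar markers was 10.5, 7.18, 16.2 and 12.1, with Vsx1 at 0 in P1 pHes1_ENC and Grm6 and Bhlhe23 at 0 in P1 pHes1_EPC. The bipolar markers did not move together. At P4, 6 of them had a negative difference (5355 of the 12941 genes did), and 0 were below -1 (9.15% of these genes were). Trpm1, at 0.0267, 0.201, 0.0143 and 1.85 FPKM, was above 1 (16.6% of these genes were). For 8 pigment epithelium markers the summed FPKM was 6.74, 3.96, 9.52 and 56.0. Of the 8, 5 were above 1 at P4 (16.6% of the 12941 genes were), among them Ttr at 23.1 and Dct at 15.0 FPKM in P4 pHes1_EPC. Mlana was at 0 in both pHes1_ENC libraries and Ttr at 0 in P1 pHes1_ENC. The part of these cells in the P4 level of Otx2 in pHes1_EPC was not tested.

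The Otx2 locus in the tables is chr14:49277859-49282547 on the minus strand of NCBI37/mm9, with 4 exons in the longest coding transcript of GENCODE vM1. To set sequences beside the levels, the 250 bases before 17 RefSeq starts of the 10 genes were taken from RefSeq windows of GRCm38.p6, and each was placed in NCBI37/mm9 by its 1 exact match. Motifs were searched on both strands. TAATCC, the core bound by CRX and OTX2 (GGATTA on the other strand), was in 3 of the 17 windows, those of Otx2, Crx and Thrb, and in 6.25% of 32817 windows of all genes. TGCTGA, a core of NRL sites (TCAGCA on the other strand), was in 3 windows, those of Otx2, Rorb and Mef2d, and in 16.1% of all windows. CAGATG, an E-box of neuronal basic helix-loop-helix factors (CATCTG on the other strand), was in 2 windows, those of Otx2 and Nrl, and in 14.5% of all windows. AAGGTCA, the core of ESRRB sites (TGACCTT on the other strand), was in 1 window, of Rxrg, and in 4.08% of all windows, and the palindromic MEF2 site was in 0 of the 17 and in 3.2% of all windows. A match describes the letters and is not a binding site. Windows of 6 of the genes are printed beside their values, 5′ to 3′ on the strand of the gene, with matches in capitals. The Otx2 window with a TAATCC match, 211 bases before a RefSeq start at position 49284784, is chr14:49284785-49285034, minus strand, and lies 2237 bases beyond the locus of the tables.
Otx2: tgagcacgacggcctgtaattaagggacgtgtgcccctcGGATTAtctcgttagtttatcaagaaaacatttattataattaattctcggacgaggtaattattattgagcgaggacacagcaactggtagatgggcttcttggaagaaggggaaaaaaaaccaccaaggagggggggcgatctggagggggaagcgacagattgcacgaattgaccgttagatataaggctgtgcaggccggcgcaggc

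Rorb, a nuclear receptor that acts early in photoreceptor fate and is also used by other retinal neurons, differed from the other factors in that its level was close in all 4 libraries. Its FPKM was 82.4, 55.9, 71.5 and 79.6. It was the most abundant of the 10 in P1 pHes1_EPC. The level in pHes1_EPC was 67.9% of that in pHes1_ENC at P1 (range 65.1 to 70.7). At P4 it was 111% (range 107 to 116) with a difference of 0.15, which is close to the median of all genes (0.15) and turned to -0.05 to -0.15 when the libraries were rescaled. The ratio of P4 to P1 was 0.868 in pHes1_ENC and 1.42 in pHes1_EPC. Rorb is known from amacrine and horizontal cells too, and the summed FPKM of 7 markers of these cells was 222, 29.0, 85.1 and 30.3, and their part in the level of Rorb was not tested. These markers did not move together. Slc6a9 was at 19.1, 1.72, 62.6 and 10.1 FPKM and made up most of the sum in P4 pHes1_ENC, whereas Tfap2b was at 109, 2.19, 7.93 and 1.24, and Prox1, at 17.6, 23.2, 10.8 and 18.1, was higher in pHes1_EPC at both ages. The locus is chr19:19005099-19185686, minus strand, with 10 exons. The window before its outer start, chr19:19185687-19185936, minus strand, holds 1 TGCTGA match, 77 bases before the start.
Rorb: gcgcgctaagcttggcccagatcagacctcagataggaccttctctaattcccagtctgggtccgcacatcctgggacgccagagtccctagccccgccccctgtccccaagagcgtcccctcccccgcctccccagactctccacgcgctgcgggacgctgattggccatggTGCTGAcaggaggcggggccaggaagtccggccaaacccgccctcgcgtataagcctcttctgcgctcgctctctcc

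Prdm1, the zinc finger repressor also called Blimp1, was at 117, 9.21, 139.6 and 25.5 FPKM. Its level in pHes1_EPC was 7.89% of that in pHes1_ENC at P1 (range 7.30 to 8.95) and 18.3% at P4 (range 17.2 to 19.9). Between the ages it was 1.20-fold higher in pHes1_ENC and 2.77-fold higher in pHes1_EPC. Both pHes1_ENC libraries thus held much more Prdm1 than both pHes1_EPC libraries. The FPKM lies above its interval in the 2 pHes1_ENC libraries. The gene lies at chr10:44156981-44178493, minus strand, with 8 exons, and its window held none of the 5 motifs.

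Crx, the homeodomain activator of rod and cone genes, showed the most negative difference of the 10 at P1, with Nrl close to it at -4.12. Without a pseudocount both of these factors were at -4.27. The other values here are those of Crx. The FPKM of Crx was 266, 13.8, 739 and 140.0. The level in pHes1_EPC was 5.18% of that in pHes1_ENC at P1 (range 4.65 to 5.60) and 18.9% at P4 (range 18.2 to 19.6). The differences were -4.17 and -2.39. From P1 to P4 the level was 2.78-fold higher in pHes1_ENC and 10.2-fold higher in pHes1_EPC, yet P4 pHes1_EPC did not reach the level of P1 pHes1_ENC. The Crx locus is chr7:16451296-16465304, minus strand, with 4 exons. Its window, chr7:16465305-16465554, minus strand, holds 2 matches to TAATCC in the GGATTA orientation, 94 and 21 bases before the start.
Crx: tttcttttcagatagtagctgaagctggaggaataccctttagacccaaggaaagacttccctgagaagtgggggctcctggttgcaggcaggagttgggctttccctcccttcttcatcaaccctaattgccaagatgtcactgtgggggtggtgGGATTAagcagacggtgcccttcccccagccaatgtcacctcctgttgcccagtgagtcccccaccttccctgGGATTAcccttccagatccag

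Mef2d, a MADS-box factor that works with Crx in photoreceptors and is expressed in many cell types, was at 42.2, 10.9, 88.0 and 13.8 FPKM. It was the factor whose gap between the fractions was wider at P4 than at P1 among those below -1 at both ages. Its level in pHes1_EPC was 25.9% of that in pHes1_ENC at P1 (range 22.6 to 30.8) and 15.6% at P4 (range 14.0 to 18.4). The level from P1 to P4 was 2.09-fold higher in pHes1_ENC and 1.26-fold higher in pHes1_EPC. The second of these values depends on the scaling, since the log2 difference of 0.30 in pHes1_EPC was -0.01 with the FPKM rescaled to the same total. The locus is chr3:87946317-87973089, plus strand, with 11 exons. Counted over the exons of all its GENCODE vM1 transcripts, 527 bases overlap a noncoding gene, 1700113A16Rik, on the other strand. Whether these bases lie in the sequence that was quantified was not tested. The library preparation as described does not mark strand, so any reads of the overlap cannot be told apart.

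**Figure D2:**
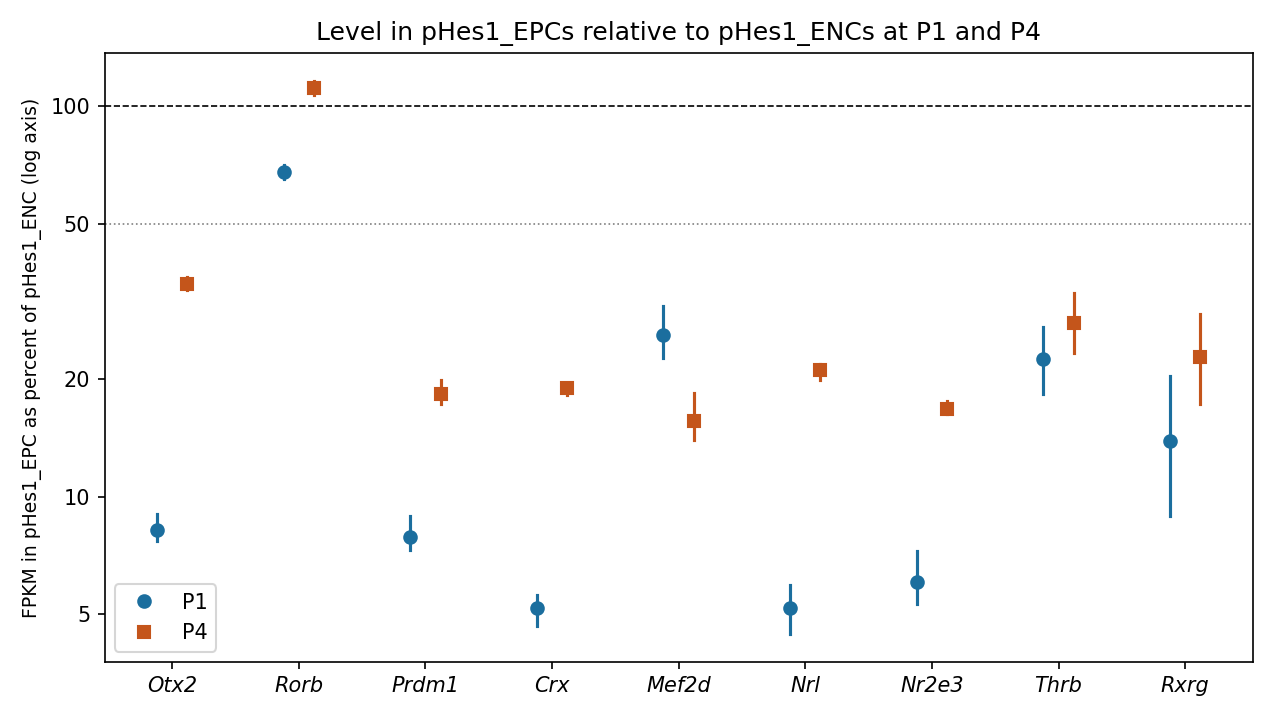
FPKM in pHes1_EPC as a percentage of FPKM in pHes1_ENC at P1 and P4 on a log axis, with bars for the range that the 95% Cufflinks bounds allow (counting error only) and Esrrb left out because its P1 intervals start at 0. Crx, Nrl and Nr2e3 lie at 5.18% to 6.06% at P1, Mef2d is the factor with a lower percentage at P4 than at P1, and Rorb is the one at or above 100% at P4 (111%, a direction that turned when the libraries were rescaled).

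The rod factors Nrl, a basic leucine zipper protein, and Nr2e3, an orphan nuclear receptor, had almost the same profile. The FPKM of Nrl was 164, 8.51, 875 and 184. The FPKM of Nr2e3 was 148, 8.98, 984 and 165. Both were therefore highest in P4 pHes1_ENC, where they ranked 13 and 7 of all genes, and lowest in P1 pHes1_EPC, where they ranked 7261 and 7068. Nrl in pHes1_EPC was at 5.18% of its pHes1_ENC level at P1 (range 4.44 to 5.93) and at 21.1% at P4 (range 19.9 to 21.9). Nr2e3 was at 6.06% (range 5.31 to 7.25) and 16.8% (range 16.2 to 17.6). The ratio of Nr2e3 to Nrl was 0.902, 1.05, 1.12 and 0.897 in the 4 libraries. The 2 genes also had the largest ratios of P4 to P1 among the 10 apart from Esrrb, 5.32 for Nrl and 6.64 for Nr2e3 in pHes1_ENC, and 21.7 and 18.4 in pHes1_EPC. The listed FPKM of both in P4 pHes1_EPC was slightly above that in P1 pHes1_ENC, an order that turned under each of the 3 other scalings. With median-of-ratios scaling, for example, Nrl changed by 2.40 with age in pHes1_ENC and differed by -2.44 between the fractions at P4. The FPKM of Nr2e3 lies above its interval in P1 pHes1_ENC and both P4 libraries, and that of Nrl lies just below its interval in P4 pHes1_ENC. Nrl lies at chr14:56137815-56143802, minus strand, with 3 exons, and Nr2e3 at chr9:59790578-59797886, minus strand, with 8 exons. Counted over the exons of all GENCODE vM1 transcripts of Nr2e3, 61 bases overlap Gm15507 on the same strand. Whether they lie in the sequence that was quantified was not tested. The Nrl window, chr14:56143090-56143339, minus strand, holds 1 CAGATG match 19 bases before a RefSeq start that lies 713 bases inside the locus of the tables. The Nr2e3 window, chr9:59797887-59798136, minus strand, holds none of the motifs.
Nrl: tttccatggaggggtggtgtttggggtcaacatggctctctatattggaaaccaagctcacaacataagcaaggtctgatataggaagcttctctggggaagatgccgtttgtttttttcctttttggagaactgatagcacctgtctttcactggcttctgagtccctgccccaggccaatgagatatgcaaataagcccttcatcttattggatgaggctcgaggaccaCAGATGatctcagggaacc
Nr2e3: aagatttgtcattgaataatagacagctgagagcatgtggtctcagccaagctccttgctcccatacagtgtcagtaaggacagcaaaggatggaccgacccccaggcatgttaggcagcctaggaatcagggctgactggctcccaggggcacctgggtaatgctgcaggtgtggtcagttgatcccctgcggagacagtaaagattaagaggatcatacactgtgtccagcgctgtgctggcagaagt

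Esrrb, a nuclear receptor of maturing rods, was barely detected. Its FPKM was 0.0546, 0.00954, 0.944 and 0.145, and it is the 1 factor that did not reach an FPKM of 1 in any library. Both P1 intervals start at 0, so no ratio is given at P1. At P4 the interval in pHes1_ENC (0.756 to 1.14) lay above that in pHes1_EPC (0.0674 to 0.222), and the level in pHes1_EPC was 15.3% of that in pHes1_ENC (range 5.92 to 29.3). The difference of -0.76 at P4 is compressed by the pseudocount and was -2.09 with a pseudocount of 0.1. The gene lies at chr12:87702067-87862578, plus strand, with 7 exons.

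The cone factors were listed at lower FPKM than all others but Esrrb. Thrb, the thyroid hormone receptor that drives the middle-wavelength opsin, was at 7.77, 1.74, 8.87 and 2.47 FPKM. Rxrg, a retinoid X receptor of cones and ganglion cells, was at 7.14, 0.994, 13.3 and 3.03 FPKM. Both were lower in each pHes1_EPC library than in either pHes1_ENC library. Thrb in pHes1_EPC was at 22.5% of its pHes1_ENC level at P1 (range 18.3 to 27.2) and at 27.9% at P4 (range 23.3 to 33.2). For Thrb these ranges overlap, and its P1 and P4 intervals in pHes1_ENC overlap as well. Rxrg was at 13.9% at P1 (range 8.93 to 20.4) and 22.8% at P4 (range 17.2 to 29.4), and these ranges overlap too. From P1 to P4 Rxrg was 1.86-fold higher in pHes1_ENC and 3.05-fold higher in pHes1_EPC. The summed FPKM of 8 ganglion cell markers was 40.4, 22.4, 8.74 and 7.06, lower at P4 where Rxrg was higher, and their part in the level of Rxrg was not tested. Rxrg lies at chr1:169528493-169569754, plus strand, with 10 exons, and Thrb at chr14:18493474-18870602, plus strand, with 7 exons. The window before the outer Thrb start, chr14:18493224-18493473, plus strand, holds a TAATCC match in the GGATTA orientation 46 bases before the start.
Thrb: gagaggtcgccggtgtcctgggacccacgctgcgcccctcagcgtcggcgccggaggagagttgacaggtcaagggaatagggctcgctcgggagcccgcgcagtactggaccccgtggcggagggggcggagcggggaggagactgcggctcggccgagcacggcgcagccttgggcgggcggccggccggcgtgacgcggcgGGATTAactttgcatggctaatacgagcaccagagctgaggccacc

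The order of the factors by FPKM changed with age and fraction. In P1 pHes1_ENC it ran Otx2, Crx, Nrl, Nr2e3, Prdm1, Rorb, Mef2d, Thrb, Rxrg and Esrrb, and of the neighbours only Thrb and Rxrg had overlapping intervals. In P1 pHes1_EPC Rorb and Otx2 came first, followed by Crx, and the next 4, Mef2d, Prdm1, Nr2e3 and Nrl, overlapped with their neighbours. In P4 pHes1_ENC the rod factors Nr2e3 and Nrl came first with overlapping intervals, followed by Otx2 and Crx, whose intervals also overlapped. In P4 pHes1_EPC the order was Otx2, Nrl, Nr2e3, Crx, Rorb, Prdm1, Mef2d, Rxrg, Thrb and Esrrb, and only Rxrg and Thrb overlapped. The ratio of Nrl to Otx2 was 0.323, 0.204, 1.05 and 0.631, so at P4 Nrl stood slightly above Otx2 in pHes1_ENC and came nearer to it in pHes1_EPC. The ratio of Nrl to Crx was 0.618 in both P1 libraries and 1.18 and 1.32 at P4.

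Change with age was set out within each fraction. In pHes1_ENC 4 of the 10 factors were above 1 from P1 to P4 (4.67% of the 12941 genes were), Crx, Mef2d, Nrl and Nr2e3. In pHes1_EPC 6 were (7.04% of these genes were), Otx2, Prdm1, Crx, Nrl, Nr2e3 and Rxrg. None was below -1 in pHes1_ENC (10% of these genes were) or in pHes1_EPC (4.33%). The P4 interval lay apart from and above the P1 interval for 8 factors in pHes1_ENC (27.4% of these genes) and for 10 in pHes1_EPC (43.3%). It lay below for 1, Rorb, in pHes1_ENC (31.5%) and for 0 in pHes1_EPC (22.9%). Mef2d in pHes1_ENC and Rxrg in pHes1_EPC were near the limit, at 1.04 and 1.02, and were at 0.92 and 0.85 at the lowest under other scalings. The median change of the 10 factors was 0.85 in pHes1_ENC and 1.20 in pHes1_EPC, against -0.01 and 0.17 for the 12941 genes. The 2 changes with age and the 2 differences between fractions are built from the same 4 libraries. The difference at P4 minus that at P1 was positive for Otx2 (2.06), Nrl (1.88), Crx (1.78), Nr2e3 (1.34), Prdm1 (1.12), Rorb (0.70), Rxrg (0.20) and Thrb (0.17), and negative for Mef2d (-0.74) and Esrrb (-0.70). The Esrrb value depends on the pseudocount, which compresses its P1 difference (-0.06, and -0.50 with a pseudocount of 0.1). Both P1 intervals of Esrrb start at 0, so a wider gap at P4 cannot be read from it. The summed FPKM of the 10 factors was 1343, 152, 3755 and 906.

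**Figure D3:**
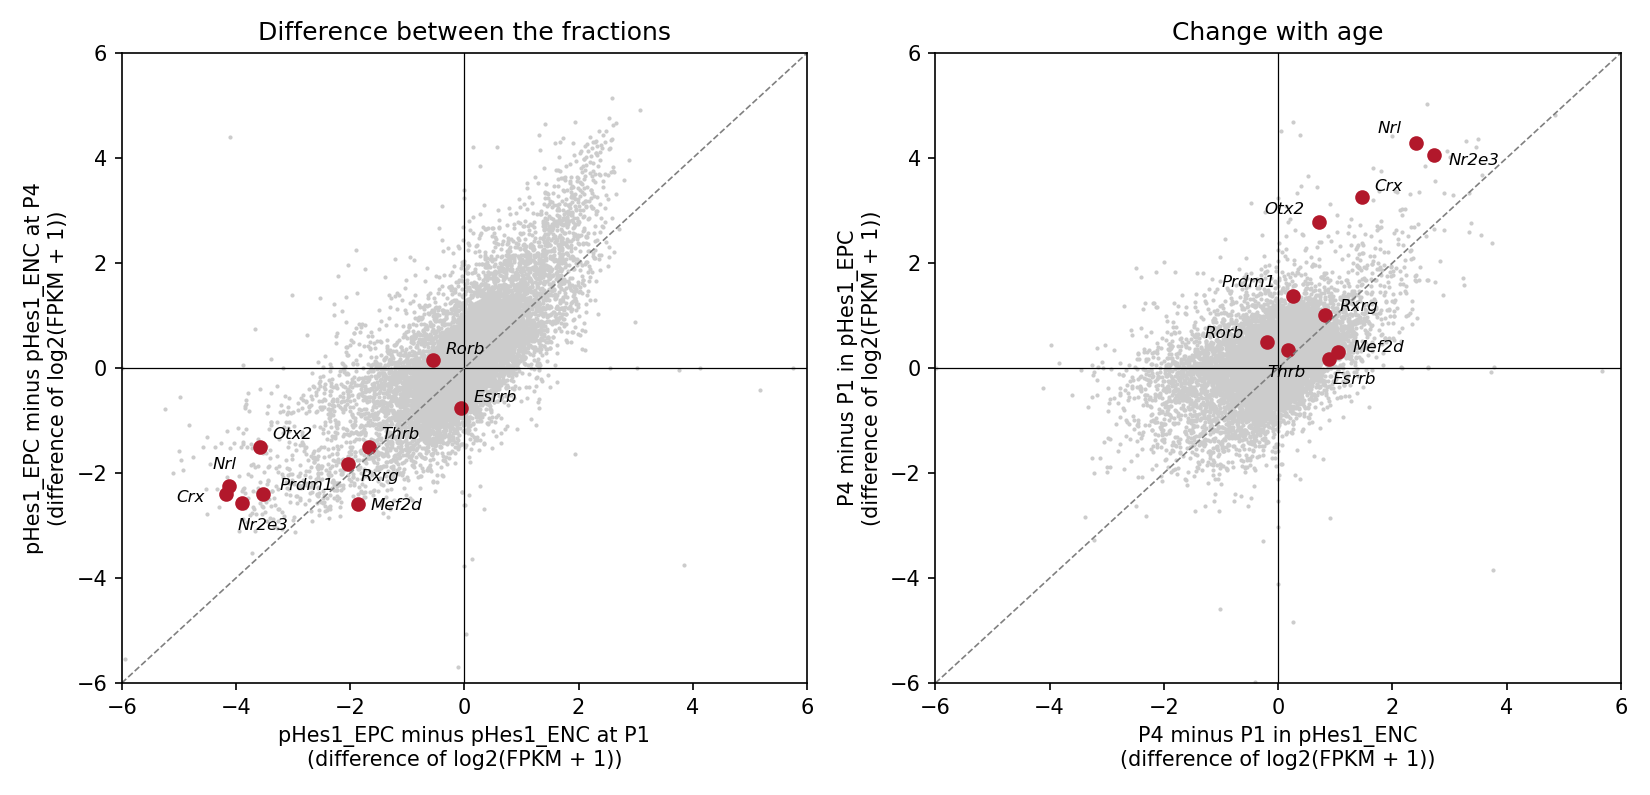
Left, the difference between the fractions at P1 (x axis) against that at P4 (y axis), and right, the change with age in pHes1_ENC (x axis) against that in pHes1_EPC (y axis), all as differences of log2(FPKM + 1), with the 10 factors in red, the 12941 genes in grey and a dashed line where both axes are equal. Otx2, Crx, Nrl, Nr2e3 and Prdm1 lie above the line in both panels, and Mef2d and Esrrb lie below it. The place of Esrrb depends on the pseudocount, which compresses its P1 difference. The distance from the line is the same in both panels by construction, so the panels are not separate observations of it.

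Genes related to the factors did not all share their pattern. Of 17 paralogs from the same families, 6 were below -1 and 1 above 1 at P1 (11.5% and 10.3% of the 12941 genes were). At P4, 8 were below -1 and 2 above 1 (9.15% and 16.6% of these genes were). In the Rorb family Rora was at 5.98, 3.07, 7.36 and 1.01 FPKM, with differences of -0.78 and -2.05, and was thus below -1 at P4, unlike Rorb. Beside Prdm1, Prdm8 was at 33.1, 1.97, 21.9 and 6.46 and Prdm13, a factor of amacrine cells, at 58.9, 1.74, 14.6 and 3.40, both lower in pHes1_ENC at P4 than at P1 where Prdm1 was higher. Otx1 did not reach an FPKM of 1 in any library, and neither did Mef2c. Mef2a (-0.51 and -1.49) had a more negative difference at P4 than at P1, like Mef2d, as had Mef2b (-0.76 and -1.10).

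Among relatives of the rod factors, Nr2e1 and Maf were listed higher in pHes1_EPC at both ages, and Mafa, Esrrg and Esrra lower. The intervals of the 2 fractions overlapped for Mafa at P1 and for Esrra at P4, and the P1 difference of Maf was only 0.26. Nr2e1, the paralog of Nr2e3 known as Tlx in progenitors and glia, was at 14.7, 74.6, 4.62 and 53.1 FPKM, with differences of 2.27 and 3.27 where those of Nr2e3 were -3.90 and -2.57. Maf, a large Maf protein related to Nrl, was at 7.11, 8.72, 2.71 and 19.7 FPKM and above 1 at P4. Mafa stayed at 1.34 FPKM or less. Esrrg was at 9.49, 0.641, 10.8 and 1.56 FPKM, and at P4 it exceeded Esrrb by 11.5 times in pHes1_ENC and by 10.8 times in pHes1_EPC, but no ratio is given at P1, where the Esrrb intervals start at 0. Esrra was at 12.5, 6.84, 11.6 and 10.4. Thra, the more widely expressed thyroid hormone receptor, exceeded Thrb in all libraries at 94.4, 30.7, 60.9 and 36.8, and Rxra (9.87, 18.9, 20.4 and 13.4) and Rxrb (31.6, 25.3, 34.1 and 26.9) exceeded Rxrg in all 4.

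**Figure D4:**
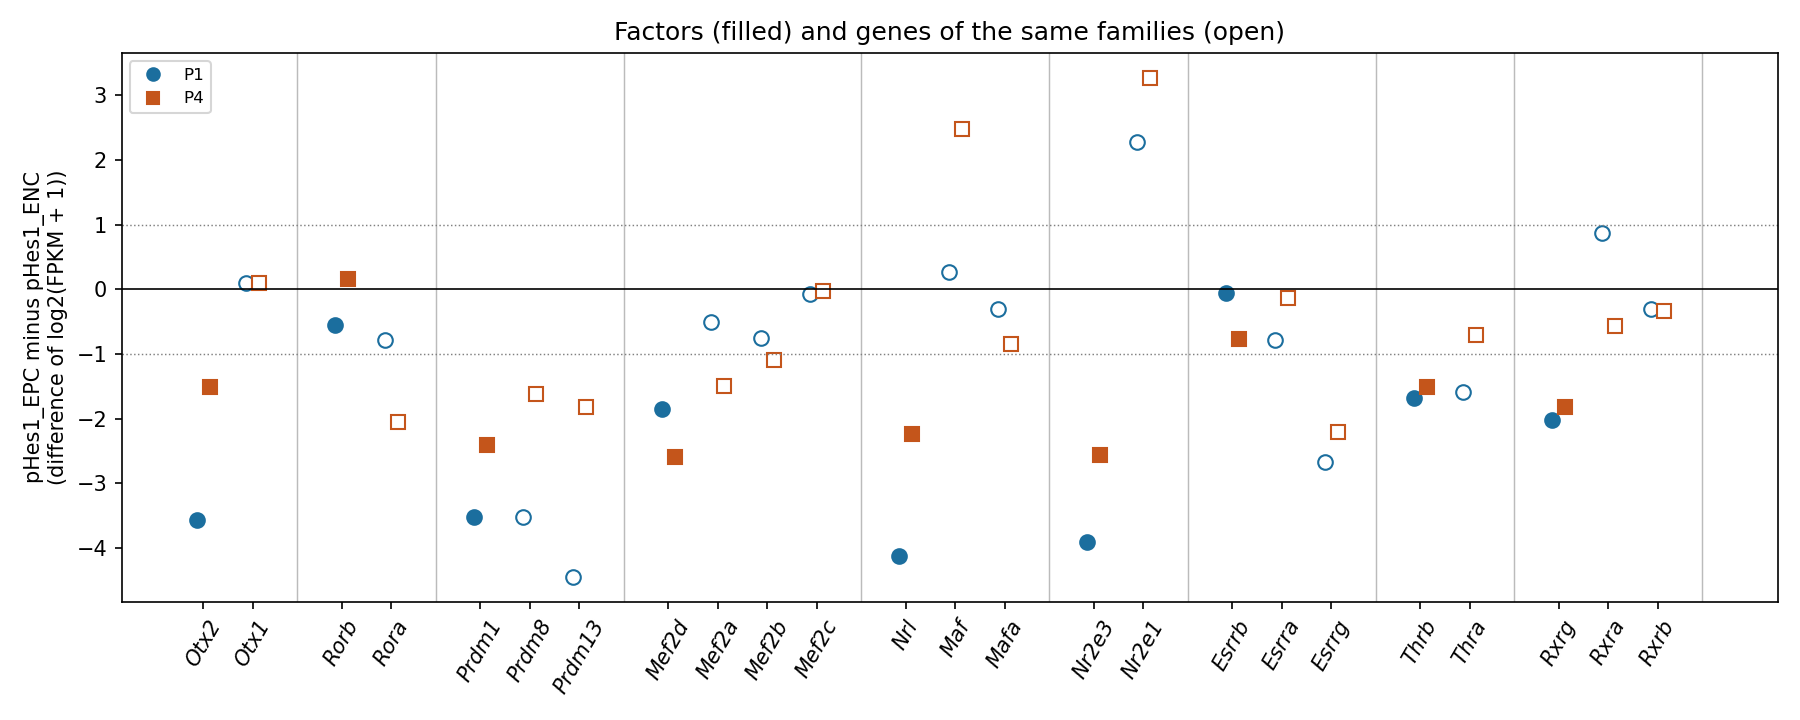
Difference between the fractions (pHes1_EPC minus pHes1_ENC, log2(FPKM + 1)) at P1 (circles) and P4 (squares) for 9 of the factors (filled) and paralogs of them (open), with dotted lines at 1 and -1. Nr2e1 lies above 1 at both ages (2.27 and 3.27) while Nr2e3 lies below -1 (-3.90 and -2.57), and Rora is below -1 at P4 (-2.05) while Rorb is at 0.15, a direction that turned when the libraries were rescaled.

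Genes that the factors are known to control, or that act beside them, were counted from lists of rod genes, cone genes and other regulators. Of 15 rod genes 11 were below -1 at P1 (11.5% of the 12941 genes were) and 14 at P4 (9.15%). The number above 1 was 0 at P1 (10.3%) and 0 at P4 (16.6%), and the medians were -2.47 and -2.05. Prph2, a membrane protein of outer segment discs, was at 55.1, 3.69, 449.8 and 75.3 FPKM. Rp1, a microtubule protein of the outer segment, had the lowest P4 difference of those that reached an FPKM of 5 (-3.05), next to Pde6b (-2.90) and Prph2 (-2.56), and Gnb1 (-1.11), Guca1a (-1.17) and Gngt1 (-1.72) the highest. All 15 were above 1 from P1 to P4 in pHes1_ENC (4.67% of the 12941 genes were) and 12 in pHes1_EPC (7.04%). Of 10 cone genes 7 were below -1 at P1 (11.5% of the 12941 genes were) and 5 at P4 (9.15%). Opn1sw, the short-wavelength opsin, was at 58.5, 9.88, 68.6 and 23.5 FPKM. Opn1mw, the opsin that Thrb drives, was at 0.0358 and 0.232 in the pHes1_ENC libraries and listed at 0 in both pHes1_EPC libraries.

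Other regulators of photoreceptor fate were split. Of 17 measured, 9 were below -1 and 1 above 1 at P1 (11.5% and 10.3% of the 12941 genes were). At P4, 6 were below -1 and 6 above 1 (9.15% and 16.6% of these genes were). Neurod1, a basic helix-loop-helix factor of photoreceptors, was at 521, 21.6, 974 and 195 FPKM, above Crx in each library. Samd7, a partner of Crx in rods, was at 38.7, 2.08, 197 and 29.7, Casz1 at 31.1, 16.1, 64.6 and 10.5 and Pias3, which modifies Nr2e3, at 45.2, 15.2, 176 and 33.7. Casz1 and Pias3 had a more negative difference at P4 than at P1, as Mef2d had. Neurog2 (2.25), a neurogenic factor, and Nr2f1 (1.94) were among the 3 with the highest P4 differences.

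**Figure D5:**
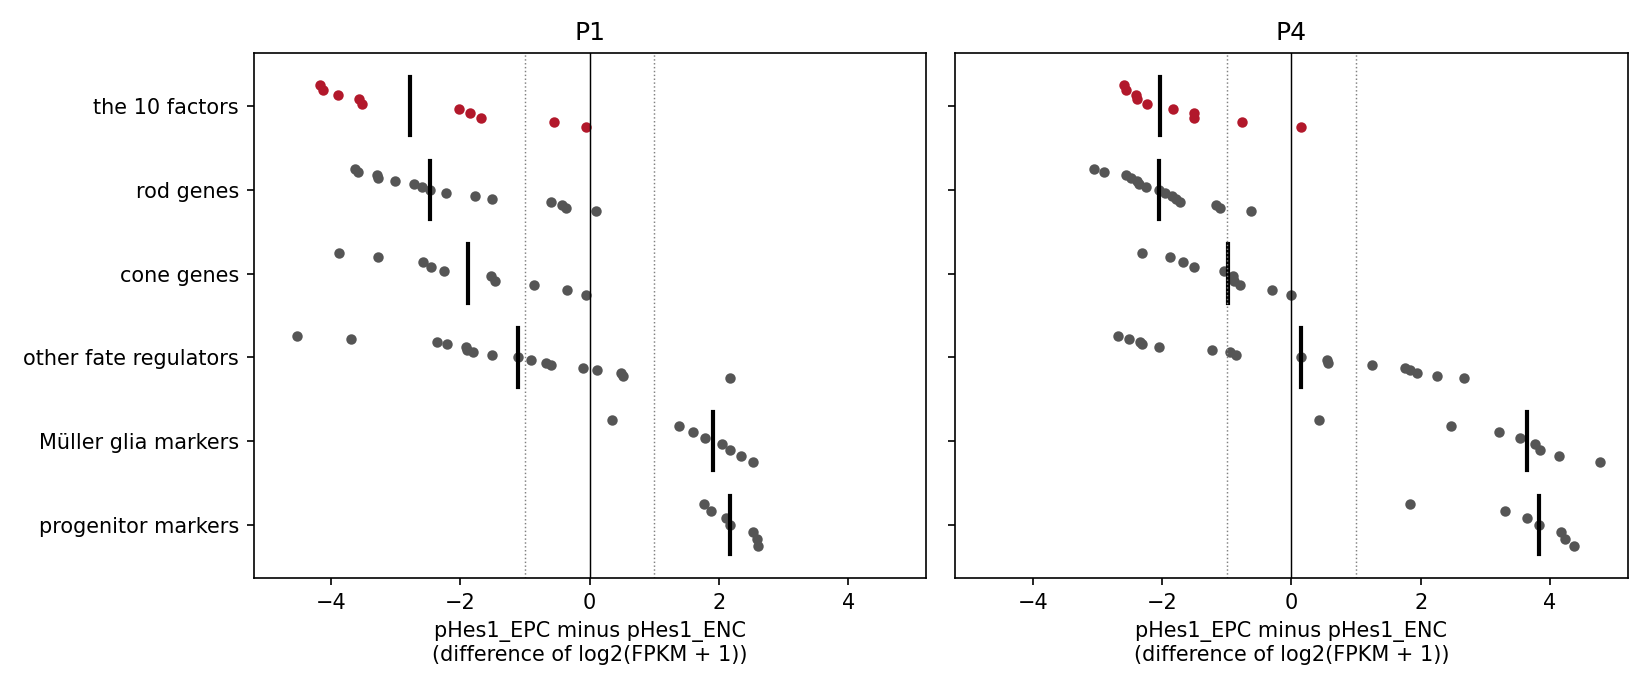
Difference between the fractions (pHes1_EPC minus pHes1_ENC, log2(FPKM + 1)) at P1 and P4 for each gene of 6 lists, with a vertical bar at the median of each list, dotted lines at 1 and -1, and height within a row only to separate the points. The 10 factors and the rod genes lie mostly below -1 at both ages, and the progenitor markers all lie above 1.

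The remaining marker lists describe what else the fractions held. Of 4 erythroid markers 3 were below -1 at P1 (11.5% of the 12941 genes were) and 4 at P4 (9.15%). Their summed FPKM was 185, 0.568, 502 and 6.65. The libraries with most of the photoreceptor factors thus also held most haemoglobin RNA, whose part in the differences was not tested. The summed FPKM of 6 endothelial markers was 63.4, 213, 14.9 and 194, most of it Kdr in each library (46.9 in P1 pHes1_ENC and 209 in P1 pHes1_EPC), while Pecam1, Cdh5 and Tek stayed at 0.142 or less. Cldn5, the next of these in level, was at 16.3, 3.49, 2.59 and 4.06, with a difference of -1.95 at P1 where that of Kdr was 2.13. That of 5 microglia markers was 0.798, 5.52, 2.66 and 3.92.

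Genes with the most similar profile to a factor were found by the Euclidean distance of log2(FPKM + 1) over the 4 libraries, after each gene was centred on its own mean, so likeness is of shape and not of level. The 8371 candidates reached an FPKM of 10 in some library. For Nrl these were Nr2e3 (distance 0.281), Rom1 (0.384) and Pdc (0.447), and for Nr2e3 they were Prph2 (0.259), Nrl (0.281) and Pdc (0.306). The 3 nearest to Crx included Igsf21 (0.388) and Neurod1 (0.436), and the nearest to Otx2 were Plcd1, Cplx3 and Gdpd5 (0.438 to 0.523). Prdm1 was nearest to Sez6l2, Robo3 and Srrm4 (0.144 to 0.218), and the 3 nearest to Mef2d included Tbc1d24 (0.143) and Dmxl2 (0.258). For Rorb they were Rspry1, Wsb2 and Vps41 (0.0512 to 0.0890). The cone factor Thrb was nearest to Parvb, Brsk2 and Gse1, and Rxrg to Apbb1, Gulo and Abhd3. With a pseudocount of 0.1 the 3 nearest shared 2 genes with these for Nrl, Nr2e3, Rorb and Mef2d, 1 for Prdm1, Crx, Thrb and Rxrg, and 0 for Otx2.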

How the data were processed

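RNA-seq libraries of pHes1_ENC and pHes1_EPC cells at P1 and P4 were grouped by the labels, 1 library in each of 4 groups. Before deposit the authors mapped 36-base reads with TopHat 2.0.8b (genome NCBI37/mm9, up to 50 hits per read) after bcl2fastq 1.8.4, and had Cufflinks 2.1.1 estimate FPKM per gene with 95% bounds and a status. The gene annotation is not given in the sources used here. Reads that map to several positions are shared among genes, and an FPKM depends on the total of its library, so both steps can shift a value. Counts were not used here.

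Each table held 23021 lines with 22558 symbols. Small RNAs were left out (787 lines), and for 235 symbols with more than 1 line the line of highest FPKM was kept, which left 21828 genes. All 10 factors have 1 line and the status OK in all libraries. FPKM were used without further scaling, with a pseudocount of 1, and a gene was counted past a difference of 1 or -1 (2-fold). With 1 library in a group no p-value was computed. Interval bounds and their ratios cover counting error only. Calculations used Python 3.11.15, numpy 2.4.6, pandas 2.3.3, scipy 1.17.1 and matplotlib 3.10.9, and the procedure was tested on simulated data. Alternatives were a pseudocount of 0.1, ratios without one, other FPKM minimums, 3 other scalings, summed lines, small RNAs kept, status OK only and intervals that do not overlap.

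The members and all lists were chosen with earlier results of these data known. The factors and their paralogs were named, except that some genes of these lists are not reported here. Of the other lists, the 3 genes with the lowest and the 3 with the highest P4 difference among those that reached an FPKM of 5 were named, with markers at 0 and the 3 nearest profiles. Markers that stand out in a summed level (Kdr, Cldn5, Pecam1, Cdh5, Tek, Slc6a9, Tfap2b and Prox1), Trpm1, Opn1sw, Opn1mw, Hes1 and the genes with opposite directions at the 2 ages were named after their values were seen. Tfap2a and Tfap2b were matched by RefSeq synonyms, and Samd11 of the regulators was not matched.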

Additional observations from a re-analysis of the deposited data

Results flagged for a closer look

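Among the factors, their paralogs and the other regulators, 7 genes stood lower in pHes1_EPC at one age and higher at the other with intervals that lay apart at both ages. The difference between the ages was not tested, since each group is 1 library. Of the 12941 genes, 3.89% were lower at P1 and higher at P4 in this way and 1.79% the reverse. Rorb was the 1 factor among them, with a P4 difference minus P1 difference of 0.70, and its P4 direction turned when the libraries were rescaled (-0.05 to -0.15).

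The basic helix-loop-helix factors of neurogenic progenitors had the widest change. Neurog2 was at 74.3, 19.3, 13.2 and 66.7 FPKM in P1 pHes1_ENC, P1 pHes1_EPC, P4 pHes1_ENC and P4 pHes1_EPC, a change of 4.14. Olig2 was at 27.6, 5.17, 5.50 and 20.9 FPKM, a change of 3.97. Both were thus lower in pHes1_EPC at P1 and higher at P4, while Otx2, Crx, Nrl and Nr2e3 were lower at both ages.

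The nuclear receptor Nr1d1 was at 25.6, 16.5, 20.6 and 30.7 FPKM, with a change of 1.16. The nuclear receptor Nr2f2 was at 11.8, 7.03, 5.09 and 8.06 FPKM, with a change of 1.25. Rxra, the paralog of Rxrg, was the 1 gene with the reverse order, at 9.87, 18.9, 20.4 and 13.4 FPKM and a change of -1.44. Rax, a homeodomain factor of progenitors and photoreceptors, was at 222, 207, 279.6 and 311 FPKM, with a change of 0.26, and its P4 direction turned under each other scaling (-0.05 to -0.25).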

How the results depend on the processing

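The numbers of factors past the limits stayed within 1.5 times of those reported under each alternative that was run, 8 or 9 below -1 at P1 and at P4, 0 above 1 at either age, 4 or 5 above 1 with age in pHes1_ENC and 5 to 7 in pHes1_EPC. The median difference of the 10 factors was more negative at P1 with a pseudocount of 0.1 (-3.17), without a pseudocount (-3.23) and with FPKM rescaled to the same total (-3.15). At P4 it was -2.17, -2.32 and -2.41 under these, -2.21 with median-of-ratios scaling and -2.20 with quantile normalization. Of 240 values of single factors under alternatives, 4 changed sign, 3 of them Rorb at P4 and 1 Mef2d with age in pHes1_EPC, and 14 changed their side of the limit, those of Esrrb, Mef2d with age in pHes1_ENC and Rxrg with age in pHes1_EPC. No paired analysis was possible because each group is 1 library. Differences between animals or sorts cannot be seen in these data, and the P1 levels of Esrrb lie at the limit of detection.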
